A study of Neurospora crassa with 10 samples.

Results

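Single-exon protein-coding genes are genes whose transcripts, as annotated, have no intron in the coding sequence (CDS) or in the untranslated regions (UTRs). They were chosen from the gene annotation of the corrected *Neurospora crassa* assembly nc14 as the protein-coding genes in which every transcript has exactly 1 exon record and whose CDS records sum to 300 to 5999 bp. This rule found 1704 genes, which is 18.3% of the 9311 protein-coding genes in that range of CDS length. The remaining 7607 genes in the range have introns and are the genes they were set against. The annotation lists 9866 genes in all, of which 9730 are protein-coding.

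The study examined the folding of the genome of *Neurospora*, a filamentous fungus, in germinated conidia of the wild type (WT) strains N150 and N3752, separately kept stocks of 1 strain, by in situ Hi-C, an assay that ligates and sequences DNA segments that touch in the nucleus. The labels give 10 datasets, cut with DpnII, with MseI or with both enzymes, some of them merged from others. The annotation belongs to the series as a whole and holds no value of any strain, enzyme or library. Sequencing depth and replicate error therefore do not apply, and each difference below is a description over annotated genes with no test. For the main differences the range over the 7 Linkage Groups (LGs, the chromosomes) is given.

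Introns are removed from the primary transcript by the spliceosome, and most genes of filamentous fungi carry a few short ones. A single-exon gene gives an mRNA that needs no splicing, so its annotated span equals its mRNA length, and its 5′ and 3′ UTRs lie directly beside the CDS. A gene model without a UTR record starts at its start codon and ends at its stop codon. Such a record is a statement about the model, and does not show that the mRNA lacks a UTR.

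The choice rested on exon records, and few genes sat near its edges. In all, 1747 protein-coding genes of any CDS length had only single-exon transcripts, and 43 of them fell outside the CDS limits, 39 below and 4 above. The members just inside the lower limit, with a CDS of 300 bp, were NCU08081, NCU08585, NCU16681, NCU04126, NCU09863 and NCU05052, while NCU16616, NCU07219 and NCU17126 lay just outside with 297 bp. At the upper limit the longest members were NCU03844 with 5652 bp, NCU03754 with 5556 bp and crf1-1 with 5535 bp. The 4 genes beyond that limit were NCU00205 with 6555 bp, NCU02685 with 6627 bp, NCU05458 with 6957 bp and mb-3 with 12021 bp.

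Every single-exon gene had 1 transcript, against 852 genes with introns (11.2%) that had more than 1. The genes with introns had a median of 3 exon records, and up to 17. Among them, 66 genes had at least 1 transcript of a single exon beside a spliced one, and 360 genes had an uninterrupted CDS with introns only in UTRs. By definition, these 360 genes differ from single-exon genes in having introns outside the CDS, and they necessarily carry a UTR record. The CDS was interrupted in the other 7247 genes.

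Single-exon genes were spread over all 7 LGs. They numbered 383 of 2246 genes in the CDS range on LG I (17.1%), 178 of 973 on LG II (18.3%), 207 of 1206 on LG III (17.2%) and 274 of 1430 on LG IV (19.2%). On LG V they numbered 268 of 1506 (17.8%), on LG VI 202 of 942 (21.4%) and on LG VII 192 of 1008 (19.0%). The share was highest on LG VI and lowest on LG I, and its mean over LGs was 18.6 ± 1.52% (SD, n = 7 LGs). Counted per Mb of LG, measured to where its final gene stops, single-exon genes had a density of 42.4 ± 4.11 per Mb (range 38.4 to 48.5), against 186 ± 6.82 per Mb (range 178 to 194) for genes with introns (SD, n = 7 LGs). The density of single-exon genes was highest on LG VI, which together with LG II had the lowest density of genes with introns (178 per Mb on each).

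**Figure D1:**
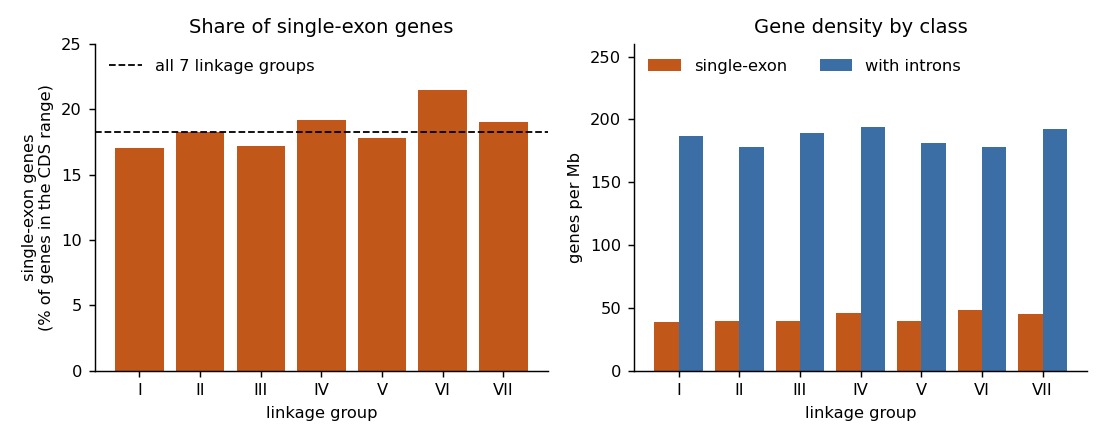
Left, single-exon genes as a percentage of the protein-coding genes in the CDS range on each linkage group, with the dashed line at the value for all 7 LGs (18.3%). Right, genes per Mb of linkage group for single-exon genes and genes with introns; LG VI has the highest bar of single-exon genes in both plots (21.4% and 48.5 per Mb).

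Within LGs the local share of single-exon genes varied. The genes of the CDS range were cut in map order into 463 blocks of 20, in which the median number of single-exon genes was 3 (interquartile range 2 to 5). It was 0 in 13 blocks and reached 10, or 50.0%, in 5. A pair of these 5 blocks lay side by side near the left end of LG I, from NCU08074 to NCU08115 at 181223 to 328569, and the last gene there is msh3, which codes for a mismatch repair protein. A further block on LG I ran from pex2 (NCU02070) to mus-42 (NCU02053) at 1464483 to 1531289. The others were NCU08230 to NCU08248 on LG III (4711338 to 4773851) and NCU04882 to NCU04900 on LG IV (616342 to 673964). The blocks were singled out after their values were seen. Whether the counts spread more than the overall share of 18.3% alone would give was not tested. Within 100 kb of the first or last annotated gene of an LG, 77 of 344 genes in the CDS range were single-exon genes (22.4%), against 1627 of 8967 genes farther in (18.1%).

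Coding sequences of single-exon genes were somewhat shorter than those of genes with introns, and more so among long genes. The median CDS was 1203 bp (interquartile range 780 to 1821 bp), which codes for 401 residues, against 1314 bp (813 to 1986 bp) and 438 residues in genes with introns. The 90th percentile was 2520 bp in single-exon genes, against 2902 bp in genes with introns. The median difference was -111 bp over all genes and was negative in 6 of 7 LGs, the exception being LG III, where the medians were 1305 bp for single-exon genes and 1287 bp for genes with introns. On LG VII, at the other end, the medians were 1099.5 bp for single-exon genes and 1332 bp for genes with introns.

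The share of single-exon genes was highest at middling CDS length and fell away among long genes. It was 18.9% at 300 to 599 bp, 20.3% at 600 to 899 bp, 20.9% at 900 to 1199 bp and 19.7% at 1200 to 1499 bp. Above that it was 16.8% at 1500 to 1999 bp, 16.1% at 2000 to 2999 bp and 13.6% at 3000 to 5999 bp. Even so, 110 single-exon genes had a CDS of 3000 bp or more. The longest on each LG were NCU02112 (5424 bp, LG I), NCU08420 (4722 bp, LG II), NCU07516 (5379 bp, LG III), NCU06984 (4746 bp, LG IV), NCU03844 (5652 bp, LG V), NCU04838 (5025 bp, LG VI) and crf1-1 (5535 bp, LG VII). All 7 had records for both UTRs. The shortest on each LG, taking the leftmost where lengths were tied, coded for 100 to 103 residues and were NCU08081, NCU01681, NCU16681, NCU16743, NCU04126, NCU09863 and NCU06128. Of these, NCU08081, NCU01681, NCU16743 and NCU09863 had no UTR record, and NCU06128 had a 3′ UTR of 1192 bp behind a CDS of 306 bp.

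Single-exon genes had UTR records less often than genes with introns. Both UTRs were annotated for 1208 single-exon genes (70.9%), against 5874 genes with introns (77.2%). The difference of -6.33 percentage points was negative on all 7 LGs, where it lay between -8.49 and -1.45. It was -5.82 percentage points when the genes with introns were weighted to the CDS lengths of the single-exon genes. On single LGs the share with both UTRs was 66.1% to 75.5% for single-exon genes, against 73.2% to 80.2% for genes with introns, so the ranges overlap. A 5′ UTR was annotated for 75.5% of single-exon genes and 79.9% of genes with introns, and a 3′ UTR for 75.4% and 81.6%. At the other extreme, 341 single-exon genes (20.0%) had no UTR record, against 1197 genes with introns (15.7%), a difference of 4.28 percentage points that was positive on all 7 LGs (1.88 to 10.6). LG VI had the largest difference.

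The composition of the classes touches this comparison. When genes with introns only in UTRs were counted together with single-exon genes, since their CDS is also in 1 piece, the difference in the share with both UTRs was -1.30 percentage points. Of these 360 genes, 94.7% had both UTRs. When the comparison was limited to genes with 1 transcript, which drops 852 genes with introns and no single-exon gene, it was -3.56 percentage points.

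UTR records went with CDS length in both classes, and the classes stood farthest apart at 600 to 899 bp. There, 59.9% of single-exon genes had both UTRs, against 75.3% of genes with introns. At 300 to 599 bp the shares were 59.7% and 58.5%, and at 3000 to 5999 bp they were 87.3% for single-exon genes and 86.9% for genes with introns. Single-exon genes without any UTR record had a median CDS of 906 bp, against 1285.5 bp in single-exon genes with both UTRs.

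**Figure D2:**
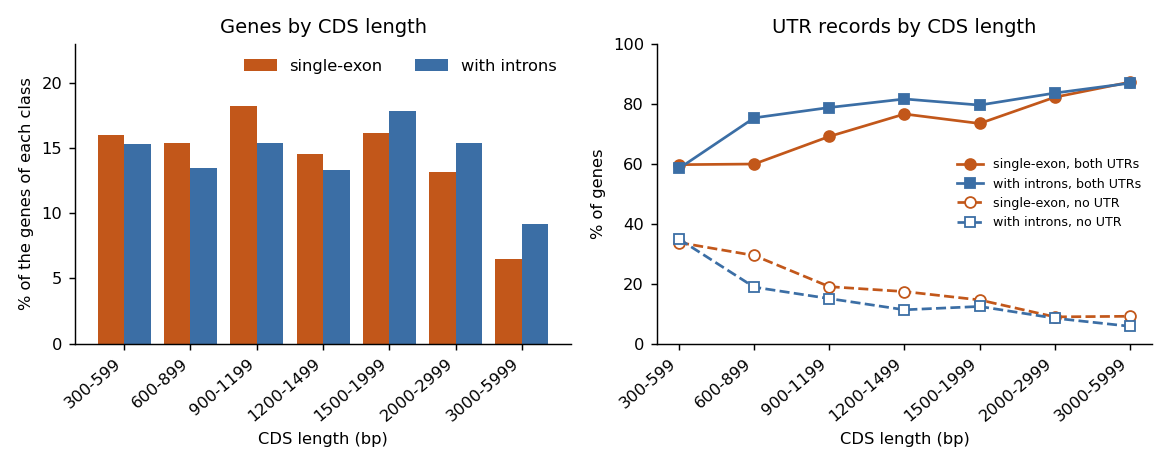
Left, the percentage of the single-exon genes and of the genes with introns that fall in each bin of CDS length (bp). Right, the percentage of each class in the same bins that has records of both UTRs (filled symbols, solid lines) or of neither (open symbols, dashed lines); the classes are farthest apart at 600 to 899 bp, with both UTRs in 59.9% of single-exon genes and 75.3% of genes with introns.

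Annotated UTRs were also shorter, taking the longest of each gene. Only genes with introns had more than 1 transcript to take it from (852 genes, 11.2%). These lengths were not compared among genes with 1 transcript. The median 5′ UTR was 261 bp in single-exon genes (interquartile range 142 to 450 bp), against 341.5 bp in genes with introns (191 to 579 bp), and the median 3′ UTR was 283 bp, against 366.5 bp. A 5′ UTR of 1 kb or more was recorded for 48 single-exon genes (3.73% of those with one), against 408 genes with introns (6.71%). A 3′ UTR of that length was likewise recorded for 48 single-exon genes (3.74%), against 444 genes with introns (7.16%). The longest 5′ UTRs among single-exon genes, named after their values were seen, were 3305 bp in NCU07784, 1998 bp in gh61-9, which belongs to a family of cellulose-cleaving enzymes, and 1954 bp in NCU07238. The longest 3′ UTRs were 2185 bp in NCU00373, 2168 bp in NCU08230 and 1893 bp in NCU03433. The CDS made up a median of 75.8% of the exon length in single-exon genes and 70.4% in genes with introns. Median exonic length was 1741 bp for single-exon genes and 2037 bp for genes with introns. With introns included, the median span of genes with introns was 2275 bp, while the span of a single-exon gene is its exonic length.

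Neighbors of single-exon genes were single-exon genes themselves more often than neighbors of genes with introns were. Of 3405 neighbors of single-exon genes, taking the next annotated gene on each side, 724 were single-exon genes (21.3%), whereas 2543 of the 15205 neighbors of genes with introns were (16.7%). The difference of 4.54 percentage points was above 0 on all 7 LGs, but ranged from 0.00831 on LG VII, where the values were both 18.2%, to 7.58 on LG III, where they were 22.7% for single-exon genes and 15.1% for genes with introns. Over all genes, both sides of the gene contributed. The upstream neighbor was a single-exon gene for 20.6% of single-exon genes and 15.6% of genes with introns, and the downstream neighbor for 21.9% of single-exon genes and 17.8% of genes with introns. The upstream difference was positive on all 7 LGs (1.81 to 8.62 percentage points). The downstream difference was positive on 6 and negative on LG VII (-1.80 to 10.4). With 0 single-exon neighbors were 1078 single-exon genes (63.3%), with 1 were 528 (31.0%) and with 2 were 98 (5.75%). The shares for genes with introns were 69.8%, 27.1% and 3.18%.

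The difference was larger among genes without UTR records, whose part in it was not tested further. In the 341 single-exon genes with no UTR record, 30.3% of neighbors were single-exon genes, against 18.3% for genes with introns and no UTR record. In the 1208 single-exon genes with both UTRs the value was 18.4%, against 16.2% for genes with introns and both UTRs. The difference between single-exon genes with no UTR record and those with both UTRs was 5.06 to 17.5 percentage points over the LGs and positive on all 7. Between the classes it was 5.57 to 19.4 percentage points among genes without UTR records, positive on all 7 LGs, and -3.28 to 5.11 among genes with both UTRs, positive on 6. When, in addition, a neighbor was counted as a single-exon gene only if it too had both UTRs, the shares were 13.5% for single-exon genes and 12.8% for genes with introns, a difference of 0.734 percentage points.

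The strand of the upstream neighbor differed as well. A gene whose upstream neighbor lies on the other strand forms a divergent pair with it. Most such pairs share 1 intergenic space, but some overlap, and these were counted too. The upstream neighbor was on the other strand for 855 single-exon genes (50.2%), against 4259 genes with introns (56.0%). The difference of -5.84 percentage points was negative on all 7 LGs, from -13.0 on LG VII to -0.395 on LG IV. It varied with CDS length and was largest among short genes, at -15.8 for 300 to 599 bp and -15.0 for 600 to 899 bp. In the bins from 900 to 1999 bp it was -3.06, -2.94 and -3.77. Among longer genes it was positive, 2.54 at 2000 to 2999 bp and 2.10 at 3000 to 5999 bp. It again differed with UTR records, since the share was 33.4% in single-exon genes with no UTR record and 45.3% in genes with introns and no UTR record, while it was 55.0% and 59.1% among single-exon genes and genes with introns with both UTRs. Between single-exon genes without and with both UTRs it differed by -32.1 to -9.82 percentage points over the 7 LGs. At the downstream side a convergent neighbor was found for 55.8% of single-exon genes and 55.2% of genes with introns, with a difference that was positive on 4 of 7 LGs.

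**Figure D3:**
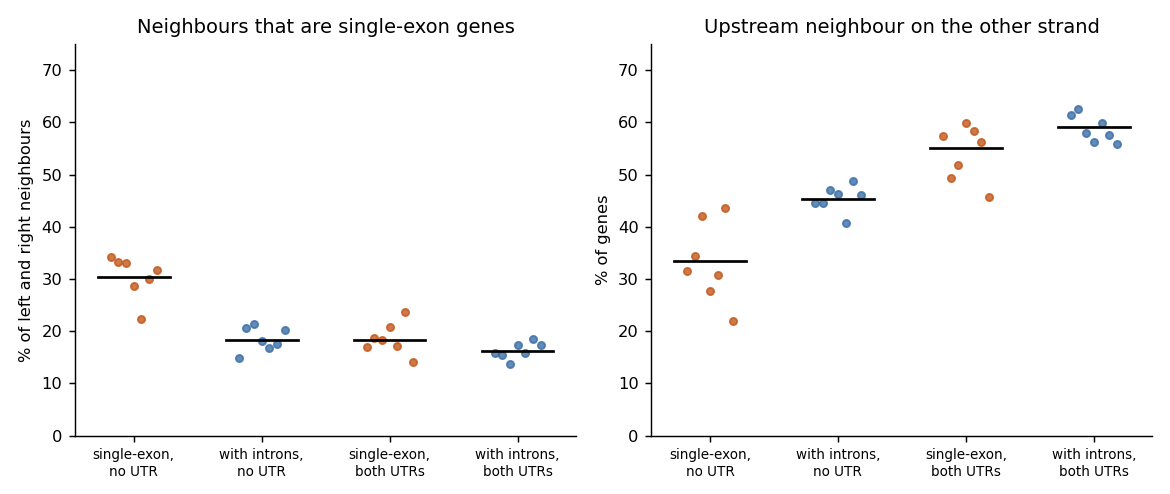
Each point is 1 of the 7 linkage groups and each black line the value over all genes of a class, with genes split by UTR records. Left, the percentage of left and right neighbors that are single-exon genes, which is 30.3% for single-exon genes with no UTR and 16.2% to 18.4% for the other classes; right, the percentage of genes whose upstream neighbor is on the other strand, which is lowest (33.4%) for single-exon genes with no UTR.

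The 362 adjacent pairs made of 2 single-exon genes were on the same strand in 187 cases (51.7%), divergent in 82 (22.7%) and convergent in 93 (25.7%). Pairs of 1 single-exon gene and 1 gene with introns, 2543 in all, had the same strand in 45.7%, and 6005 pairs of genes with introns in 44.2%. Convergent pairs of single-exon genes overlapped in 29.0% of cases, against 35.9% of mixed pairs and 37.0% of pairs with introns in both. In the other orientations overlaps were few, and the share was highest for pairs of single-exon genes. Divergent pairs overlapped in 8.54% of cases (7 of 82) among single-exon genes, 3.99% among mixed pairs and 4.28% among pairs with introns in both, and pairs on the same strand in 2.14%, 1.64% and 0.83%. Over all their neighbors, 393 single-exon genes (23.1%) and 1744 genes with introns (22.9%) overlapped a neighbor. The median gap to the upstream neighbor was 787 bp for single-exon genes and 781 bp for genes with introns, and to the downstream neighbor 521 bp and 467.5 bp. The sign of either gap difference varied among LGs.

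Runs of consecutive single-exon genes were mostly short. There were 198 runs of 2, 44 of 3, 16 of 4, 3 of 5, 2 of 6 and 1 of 7 genes, while 1078 single-exon genes stood alone. The longest run lay on LG III from 4706647 to 4733660, a stretch of 27.0 kb. Its genes were NCU08229, NCU08230, NCU08231, NCU08232, NCU16701, NCU08233 and NCU08234, with CDS lengths of 1443, 2124, 1521, 1587, 780, 660 and 1116 bp. The first 4 of them had both UTRs, and NCU16701, NCU08233 and NCU08234 had none. Of the 7 genes, 4 were on the plus strand, and all lay 93717 bp or more from the nearest long gene-free interval. Its last 6 genes also open the LG III block in which 10 of 20 genes were single-exon genes.

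The runs of 5 and 6 genes were named after their values were seen. NCU08098 to NCU08103 on LG I (253456 to 265388, 11.9 kb) had CDS lengths of 366, 546, 459, 1866, 1365 and 1350 bp, and the last 3 of these genes had no UTR record. This run ended at a gene-free interval of 26244 bp. NCU07106 to NCU07101 on LG VI (157770 to 169027, 11.3 kb) were of similar size, with CDS lengths of 777, 738, 645, 771, 657 and 558 bp, and 4 of the 6 had no UTR record. Of the runs of 5, that on LG II from NCU03535 to NCU03531 (329641 to 342800) held het-6, a gene known for heterokaryon incompatibility, the self and non-self recognition that kills fused cells of unlike strains. Its CDS was 2040 bp, and it had a 5′ UTR of 101 bp and a 3′ UTR of 213 bp. The other runs of 5 were NCU03080 to NCU03083 on LG I (4484338 to 4497404) and NCU04706 to NCU12078 on LG VI (457146 to 467683), with 0 and 3 genes lacking UTR records.

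Taken over all genes, distances to long gene-free intervals were much alike in both classes. In *Neurospora*, long stretches without genes are often AT-rich, repeat-derived and heterochromatic, but the annotation alone does not show what an interval holds. It had 214 intervals of 10 kb or more between neighboring genes, with a median of 19213 bp and a range of 10085 to 347790 bp. The median distance to the nearest one was 55047 bp for single-exon genes, against 57563 bp for genes with introns. Within 10 kb of an interval were 224 single-exon genes (13.1%), against 1054 genes with introns (13.9%). The difference of -0.71 percentage points was negative on 4 LGs and positive on 3, over a range of -5.33 to 2.95, and with intervals of 20 kb or more in place of 10 kb it was 0.639.

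**Figure D4:**
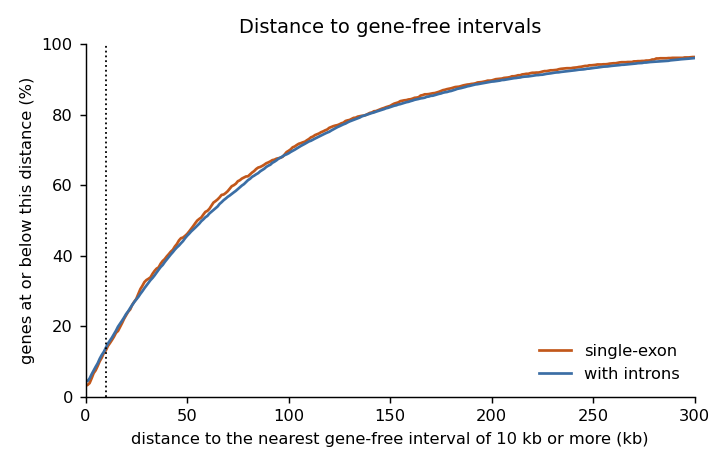
Cumulative percentage of single-exon genes and of genes with introns (vertical axis) at or below a given distance in kb from the nearest gene-free interval of 10 kb or more (horizontal axis, up to 300 kb). The curves nearly coincide, with 13.1% of single-exon genes and 13.9% of genes with introns within 10 kb, marked by the dotted line.

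Directly at the border of an interval, single-exon genes were fewer. They were 54 of the 384 genes of the CDS range that bordered an interval (14.1%), which is 3.17% of single-exon genes, against 4.34% of genes with introns. This difference of -1.17 percentage points was negative on all 7 LGs (-2.82 to -0.243). At intervals of 20 kb or more it was only -0.224 percentage points, with 1.76% of single-exon genes and 1.99% of genes with introns at a border. From 1 bp to just under 10 kb, in contrast, 19.0% of genes were single-exon genes. Of the 54, 30 had the interval at their upstream side and 26 at their downstream side, against 213 and 129 of the 330 genes with introns there. Single-exon genes lay on at least 1 side of 52 intervals (24.3%) and on both sides of 4. As an interval has a gene on each side, this share of intervals cannot be set against the shares of genes. Single-exon genes differed among themselves, since 18.8% of single-exon genes with no UTR record lay within 10 kb, against 10.8% of those with both UTRs, but the sign was not the same everywhere. It was positive on 5 LGs and negative on LG II, where the values were 12.5% without UTR records and 17.9% with both UTRs, and on LG VII, where they were 7.32% and 11.8%. Among genes with introns the values were 16.7% with no UTR record and 13.1% with both UTRs.

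By the naming rule, the single-exon gene at the first interval it borders on each LG was NCU08103 (LG I, interval of 26244 bp), NCU09593 (LG II, 39492 bp), NCU09190 (LG III, 26882 bp), NCU09665 (LG IV, 28916 bp), NCU07795 (LG V, 16241 bp), NCU07049 (LG VI, 32021 bp) and crf1-1 (LG VII, 18785 bp). NCU08103, NCU09593 and NCU09665 had no UTR record, and NCU09190 had only a 3′ UTR. Of the 54 bordering genes, 4 had a symbol, and these were looked up after the distances were known. Besides crf1-1 they were csp-1, cys-16 and cre-1. The transcriptional repressor gene csp-1 on LG I, which is under control of the circadian clock, had an interval of 11583 bp upstream of a 5′ UTR of 751 bp. The sulfur metabolism gene cys-16, also on LG I, had 35825 bp upstream. The carbon catabolite repressor gene cre-1 on LG IV (5176440 to 5178927, minus strand) had 11567 bp downstream and a gap of 8421 bp upstream, with a CDS of 1290 bp.

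Single-exon genes seldom had a gene symbol. Symbols, taken from the RefSeq table of NC12 by NCU number, were found for 90 single-exon genes (5.28%), against 986 genes with introns (13.0%). The share was lower for single-exon genes on all 7 LGs, with ranges of 2.48% to 6.76% for single-exon genes and 11.7% to 14.2% for genes with introns that do not overlap. It was also lower in every bin of CDS length, from 0.366% against 7.19% at 300 to 599 bp to 13.6% against 20.7% at 3000 to 5999 bp, and among genes with both UTRs, where it was 6.46% for single-exon genes and 15.6% for genes with introns. Gene numbers behaved alike. Among genes numbered NCU10000 or higher, 250 of 882 were single-exon genes (28.3%), against 1454 of 8429 genes with lower numbers (17.2%). With both UTRs annotated, the values were 29.1% and 16.0%.

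Over all 1076 genes of the CDS range with a symbol, 90 were single-exon genes (8.36%), and at that share a list of a few genes often holds none. None of the 9 histone genes was one, and they had 2 to 6 exons, although the main histone genes of animals are known for lacking introns. None of the 7 genes for cytoplasmic ribosomal proteins with a crp symbol, the 4 con genes of conidiation or the hydrophobin gene eas was one. Of 9 clock-controlled ccg genes, ccg-13 (CDS of 819 bp) was. Among 10 heat shock genes there were 3, namely hsp30, a small heat shock protein gene with a CDS of 684 bp, and hsp78 and hsp98, which code for chaperones of the Clp ATPase family, with 2430 and 2781 bp. All 3 had both UTRs, while hsp60, hsp80, hsp88, hsp90a and the hsp70 genes had introns. The genes that the study names by symbol and that the table lists, dim-5, set-7, set-2, met-8, hpo and frq, all had introns. In the clock gene frq these left the CDS of 2967 bp in 1 piece.

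Symbol families, which share the letters of a symbol and need not be related, were examined after their values were seen. There were 37 families with 6 or more genes in the CDS range, holding 464 genes, and 18 of them, with 167 genes, had no single-exon gene. Most of the 37 are small, and the share of 8.36% over all genes with a symbol is the value to read them against. Families without one included nuo (23 genes, subunits of respiratory complex I), tca (16 genes), rpn (12 genes, proteasome regulatory subunits), vma (12 genes, subunits of the vacuolar ATPase) and arg (11 genes, arginine biosynthesis). The glycoside hydrolase family gh had 9 single-exon genes of 79 (11.4%), close to the share over all symbols, among them the xylanase gene gh11-1 with a CDS of 660 bp and gh61-2 with 1107 bp. The kinase family stk had 5 of 52 (9.62%), likewise close to it. Of these, stk-56, stk-35 and stk-36 lay between 341949 and 393053 on LG III, 1995 to 8867 bp from an interval of 36618 bp. The others, stk-39 on LG III and stk-25 on LG V, lay 200794 and 61573 bp from the nearest interval.

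**Figure D5:**
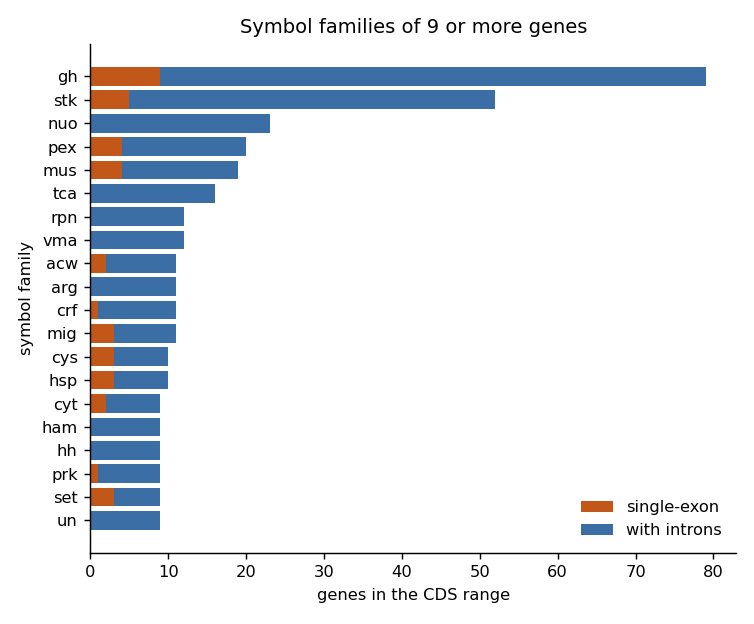
Number of genes in the CDS range (horizontal axis) in each symbol family of 9 or more genes (vertical axis), split into single-exon genes at the left of the bar and genes with introns. Families such as nuo (23 genes), tca (16 genes), rpn and vma (12 genes each) show no single-exon gene, and gh shows 9 of 79.

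The following families and genes were also picked after their values were seen, and no family's share was tested against the 8.36% of all genes with a symbol. Among the pex genes, which serve the building of peroxisomes, pex2 (CDS of 1917 bp), pex8 (2229 bp) and pex10 (1287 bp) were single-exon genes. Of 19 mus genes, named for sensitivity to mutagens, mus-40, mus-42, mus-44 and mus-50 were single-exon genes, with a CDS of 3807, 4041, 1215 and 3315 bp. Of 9 set genes, which code for SET domain proteins, set-4 (2844 bp), set-5 (927 bp) and set-8 (4326 bp) were. Of 10 cys genes of sulfur metabolism, cys-2 (3090 bp), cys-12 (1368 bp) and cys-16 (1251 bp) were. The histone deacetylase genes hda-2 (1497 bp, no UTR record) and hda-4 (3636 bp) were single-exon genes as well, as was nmr (1464 bp), whose product takes part in nitrogen metabolite repression, and ad-3A (921 bp), a gene of adenine biosynthesis.

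The qa cluster, whose genes allow growth on quinic acid as carbon source, showed both kinds of gene in 1 contiguous group. Its 7 genes lay on LG VII from 2040689 to 2058103 in the order qa-1F, qa-1S, qa-Y, qa-3, qa-4, qa-2 and qa-X. The activator gene qa-1F (CDS of 2448 bp, 816 residues) had 1 exon, and the adjacent repressor gene qa-1S (2754 bp) had 2. The dehydroshikimate dehydratase gene qa-4 (1077 bp) and the catabolic dehydroquinase gene qa-2 (519 bp) were single-exon genes, adjacent and convergent with a gap of 153 bp. The quinate dehydrogenase gene qa-3 (1017 bp) had 2 exons and qa-X (1020 bp) had 3. The permease gene qa-Y (1611 bp) had 2 exons with its CDS in 1 piece. Thus 3 of the 7 genes were single-exon genes, 2 of which had both UTRs and 1, qa-4, only a 3′ UTR of 36 bp.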

How the data were processed

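The authors deposited 1 gene annotation of assembly nc14 with 81158 records, each giving the first and last base (bp, counted from 1) of a feature. It holds 0 columns of single samples. How gene models were carried over to nc14 is not given in these sources. A gene was the span of all records with its NCU number. CDS length was that of the longest transcript, without the stop codon, and all 10785 protein-coding transcripts had a CDS divisible by 3. UTR lengths were the exon bases before the start codon and after the stop codon. Where a gene had more than 1 transcript, the largest 5′ UTR, 3′ UTR and exonic length were each taken. Neighbors were the next annotated genes of any type. Gene-free intervals lay between genes of any type, chromosome ends left out, and distances ran from the nearer gene edge. Symbols came from the RefSeq table of NC12, in which 9865 of the 9866 annotated genes were found, all 1704 single-exon genes included. No NC12 position was used. The members and gene lists were chosen with earlier results of these data known.

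The text names, for each LG, the single-exon genes with the longest and shortest CDS and the one nearest to an interval of 10 kb or more, the genes of the longest run, those at the CDS limits, and members of the histone, ribosomal protein, heat shock and conidiation lists or named in the paper. Other genes are marked as chosen after their values were seen. Lists by product name and features of proteins and promoters were not analysed here, and 1 gene is not reported here. Python 3.11.15 with numpy 2.4.6 and pandas 2.3.3 was used, and figures were drawn with matplotlib 3.10.9. Tested on simulated annotations of 120 genes, the code recovered gene classes, CDS lengths, UTR lengths of single-exon genes, intervals and distances in 20 of 20. Neighbors, their strands and overlaps were not checked in this way.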

Additional observations from a re-analysis of the deposited data

How the results depend on the processing

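With 1 annotation and no replicates, a share, median or difference was taken as moved where it changed by more than 1 SD over the 7 LGs, and the number of genes where it changed by more than 1.5 times. Of 102 alternative values, 96 had not moved, 5 had, and 1 changed sign. Many of these values leave out 1 LG at a time and keep most of the same genes, so by this rule they could hardly move. For the share within 10 kb the SD over LGs (2.91 percentage points) exceeds the size of the difference itself (-0.71), so a value that had not moved says little there. The number of single-exon genes, 1704, lay between 1208 (both UTRs only) and 2064 (introns in UTRs allowed). The share of single-exon genes was 22.2% when introns in UTRs were allowed and 20.1% among genes with 1 transcript, against 18.3%. The difference in the share with both UTRs, single-exon genes minus genes with introns, was -1.30 percentage points when introns in UTRs were allowed and -3.56 among genes with 1 transcript, against -6.33. The difference in single-exon neighbors was 0.734 percentage points where both the genes compared and the neighbors counted as single-exon had to have both UTRs, against 4.54. The difference in the share within 10 kb of a gene-free interval was 0.639 with intervals of 20 kb or more, against -0.71. Among genes with both UTRs it was -2.38, which did not count as moved. Leaving out 1 LG at a time, the 4 differences kept their sign and lay between -133.5 and -96 bp for the median CDS, -6.90 and -6.02 percentage points for both UTRs, 4.10 and 5.10 for single-exon neighbors, and -1.23 and -0.143 for the share within 10 kb. The share of single-exon genes was then 17.9% to 18.7%, and the difference in upstream neighbors on the other strand -6.86 to -4.91 percentage points. No paired analysis was possible because no value belongs to a numbered replicate. Depth sets no limit here. The values rest on introns and UTRs as annotated, and these records do not show how complete that annotation is.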

Other observations

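The 360 genes whose introns all lie in UTRs had a median CDS of 1072.5 bp, against 1203 bp in single-exon genes and 1326 bp in the 7247 genes with an interrupted CDS. Of their neighbors, 18.1% were single-exon genes, against 21.3% of the neighbors of single-exon genes and 16.7% of those of genes with an interrupted CDS. Their upstream neighbor was on the other strand in 60.0%, against 50.2% of single-exon genes and 55.8% of genes with an interrupted CDS. Their median 5′ UTR was 399 bp, against 261 bp in single-exon genes and 339 bp in genes with an interrupted CDS. A 5′ UTR of 1 kb or more was recorded for 10.3% of those with a 5′ UTR, against 3.73% of single-exon genes and 6.49% of genes with an interrupted CDS.

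Single-exon genes without UTR records overlapped a neighbor in 6.74% of cases, against 29.0% of single-exon genes with both UTRs. For genes with introns the values were 8.19% without and 26.7% with both UTRs. Since a UTR record lengthens the gene span, the overlap and the UTR record are not separate measures.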
